A study of Mus musculus with 24 samples.

Results

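Extracellular proteases and their inhibitors were followed as 9 genes, taken by name from the 53379 genes of the count table: the metalloproteinase inhibitors Timp1, Timp2 and Timp3, the membrane-anchored protease Adam8, the secreted proteases Adamts1, Adamts4 and Adamts9, the tissue plasminogen activator Plat and the urokinase receptor Plaur. All 9 passed the filter on low counts, among 37598 genes tested. Adult male C57/BL6N mice had received kainic acid (KA) into the deep cortex next to the right hippocampus, or 0.9% NaCl in the sham group (SH), and only KA mice with convulsive seizures were kept. At 24 hours post injection the right hippocampi of 8 mice per treatment were combined into 3 pools, 1 of 4 mice and the others of 2 mice. Nuclei of each pool were sorted by the neuronal nuclear protein NeuN into neurons (NeuN+) and glia (NeuN-), which gave 3 libraries for each of SH neurons, KA neurons, SH glia and KA glia.

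Proteases outside the cell trim the extracellular matrix, release membrane-bound signals and open paths for moving cells and growing processes. TIMP proteins bind the catalytic site of metalloproteinases and block it. ADAM proteases sit in the membrane, whereas ADAMTS proteases are secreted and several of them cleave the lecticans, the chondroitin sulfate proteoglycans aggrecan, brevican, neurocan and versican that fill the matrix between brain cells and the nets around neurons. Plasminogen activators turn plasminogen into plasmin, and the urokinase receptor holds urokinase at the cell surface. In the hippocampus this system is known for its part in synaptic plasticity and in the tissue response to seizures.

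The libraries held nuclear mRNA, so the levels are those of transcripts in nuclei and not of cytoplasmic mRNA or protein. In a sorted bulk fraction, fewer cells of a type and less RNA per cell cannot be told apart. Total counts ranged from 7769400 to 40364768 per library. The replicate 3 libraries were the deepest of each group (28721556 to 40364768 counts) but had fewer genes with a count (36165 to 42160) than those of replicate 2 (46005 to 47748). SH glia replicate 1 and KA glia replicate 2 were amplified from 0.05 ng RNA with 15 PCR cycles, the other libraries from 1 ng with 10 cycles. The sort was visible in marker genes, since 9 of 10 neuronal markers were higher in neurons than in glia in SH, and all 7 microglial, 6 oligodendrocyte and 8 astrocyte markers were lower. Levels are given as CPM, counts scaled to the library total after its adjustment by the TMM factor. In KA glia the summed level of the 8 astrocyte markers was 1185 to 2224 CPM, against 1875 to 2763 CPM in SH glia. Gfap (359.6 to 720 CPM in KA, 118.8 to 175.6 CPM in SH) had a logFC of 1.94 (edgeR FDR 0.546). Aqp4 (130.5 to 157.7 against 72.4 to 101.5 CPM) had a logFC of 0.68 (FDR 0.9999). Both were higher in all KA glia, as 3.61% of all tested genes were, but short of the threshold. Only these 2 of the 8 astrocyte markers had a positive logFC in glia (median of the 8 -0.83). For 4 of the 8, every KA glia library was below every SH glia library, as for 3% of all tested genes. The summed level of the 7 microglial markers was 674 to 1398 CPM in KA glia against 947 to 2192 CPM in SH glia. The 6 oligodendrocyte markers summed to 6276 to 11760 CPM in KA glia and 11620 to 24420 CPM in SH glia. The 6 blood leukocyte markers summed to 7.74 to 28.5 CPM in KA glia and 4.96 to 23.6 CPM in SH glia, with none of the 5 tested past the threshold, and the 6 endothelial markers to 19.5 to 58.1 CPM against 10.7 to 39.2 CPM. Up to 2 of the 6 leukocyte markers were at 0 in a library. The 10 neuronal markers summed to 628 to 1634 CPM in SH glia and 463 to 1450 CPM in KA glia. In neurons they summed to 4792 to 7207 CPM in SH and 4654 to 5859 CPM in KA. How far RNA of neurons contributes to levels in the glial fraction was not tested. Of the glial markers, P2ry12 of microglia (logFC -2.38, edgeR FDR 0.0826), Aldoc of astrocytes (-1.76, FDR 0.245) and Cspg4 of oligodendrocyte precursors (-1.44, FDR 0.240) were past the FDR threshold of 0.25 used throughout, all lower in KA glia. The part of these shifts in the results on glia was not tested.

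The promoter windows of 4 genes are shown: Timp1, Adam8 and Plaur, which rose in KA, and Adamts1, whose positive change came next in size in glia. They run from 250 bases before the start to 50 bases after it, on the strand of the gene, in RefSeq's annotation of GRCm38.p6, where 7 of the 9 genes had a window. Capitals mark a match to the AP-1 motif TGANTCA or to the GC box GGGCGG, searched on both strands. Timp1 lies on the plus strand at chrX:20869916-20870215, Adam8 on the minus strand at chr7:139992513-139992812, Plaur on the plus strand at chr7:24462233-24462532 and Adamts1 on the minus strand at chr16:85803064-85803363.
Timp1: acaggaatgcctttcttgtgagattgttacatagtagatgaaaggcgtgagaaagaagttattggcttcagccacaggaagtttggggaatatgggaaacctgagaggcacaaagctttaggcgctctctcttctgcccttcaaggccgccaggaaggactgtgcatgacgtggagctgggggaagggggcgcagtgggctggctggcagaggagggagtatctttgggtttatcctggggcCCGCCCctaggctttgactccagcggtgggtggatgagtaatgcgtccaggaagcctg
Adam8: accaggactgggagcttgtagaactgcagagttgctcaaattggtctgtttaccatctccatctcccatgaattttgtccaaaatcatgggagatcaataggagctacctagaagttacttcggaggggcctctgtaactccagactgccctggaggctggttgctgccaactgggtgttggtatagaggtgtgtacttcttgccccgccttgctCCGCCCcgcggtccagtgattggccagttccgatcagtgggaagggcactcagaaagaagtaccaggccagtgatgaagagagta
Plaur: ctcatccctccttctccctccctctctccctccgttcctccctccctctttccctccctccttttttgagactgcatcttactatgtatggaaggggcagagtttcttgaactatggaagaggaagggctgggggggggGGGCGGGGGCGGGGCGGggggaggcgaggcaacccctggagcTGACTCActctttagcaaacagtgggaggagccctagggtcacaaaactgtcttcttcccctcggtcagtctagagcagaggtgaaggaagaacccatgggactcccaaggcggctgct
Adamts1: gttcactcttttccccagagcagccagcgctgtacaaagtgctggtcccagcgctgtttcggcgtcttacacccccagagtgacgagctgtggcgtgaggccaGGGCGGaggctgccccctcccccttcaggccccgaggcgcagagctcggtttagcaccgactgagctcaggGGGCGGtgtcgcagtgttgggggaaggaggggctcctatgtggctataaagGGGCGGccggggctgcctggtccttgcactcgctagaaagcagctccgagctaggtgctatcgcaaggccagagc

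AP-1 is the dimer of Fos and Jun proteins that neuronal activity induces. Only exact matches to its motif TGANTCA were searched for, and not sites that depart from these letters. The share of all 32851 promoter windows with such a match was 7.81%. Among the 7 windows a match was found in that of Plaur alone, as TGACTCA from base -69 to base -63 before the start. The 3 GC boxes of Plaur, of which the last shares 1 base with the one before it, lie just upstream of this match. A GC box, the motif of Sp1, was found in all 7 windows, against 35.7% of all windows. Adamts1 had a TATA match, TATAAA, from base -32 to -27, as 13.6% of all windows do on either strand. Matches to the CRE motif TGACGTCA, the STAT motif TTCNNNGAA and the kappa-B motif of NF-kB were found in 0 of the 7 windows, against 1.79%, 8.3% and 1.63% of all windows. A match describes letters in the window and says nothing of binding.

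Timp1, which encodes the inducible, secreted inhibitor of metalloproteinases, rose in both fractions and had the largest change of the 9 genes. It is annotated at chrX:20870166-20874735 in GRCm38, within the span of the synapsin gene Syn1 on the opposite strand. In SH neurons its level was 0, 0.211 and 0.449 CPM in replicates 1, 2 and 3, and in KA neurons 5.81, 3.82 and 13.0 CPM. Behind these levels stood 0 to 11 counts per SH library and 68 to 322 counts per KA library, and the 0 in replicate 1 allows up to 0.182 CPM (3 counts). Every KA library of neurons thus lay above every SH library, as it did for 5.27% of all tested genes. The logFC, the log2 fold change of KA over SH from edgeR's quasi-likelihood test over all genes, was 4.99 ± 0.75 (SE, n = 3 pools per group). Its adjusted p (edgeR FDR, Benjamini-Hochberg) was 0.0251. The SE of each logFC was derived from the test statistic of the fit over all libraries, not from 3 pools alone.

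In SH glia Timp1 stood at 1.05, 0.536 and 0.717 CPM and in KA glia at 23.7, 15.1 and 20.8 CPM, again with KA above SH throughout, as for 3.61% of all tested genes. Its logFC in glia was 4.71 ± 0.72 (SE, n = 3 pools per group), with an edgeR FDR of 0.0214. The changes in neurons and glia differed by 0.28 on the log2 scale (95% interval -1.58 to 2.14), neurons minus glia. Without the replicate 3 libraries, a setting chosen after the data were seen, the logFC was 5.25 in neurons (edgeR FDR 0.159) and 4.64 in glia (FDR 0.263, past the threshold no longer). Counting ignored the strand, so reads of unspliced Syn1 over exons of Timp1 could be counted for Timp1. Syn1 stood at 145 to 375 CPM in SH neurons, where Timp1 was at most 0.449 CPM. The logFC of Syn1 was 0.24 in neurons and -0.45 in glia (edgeR FDR of 1 and 0.9999). How far such reads contribute to the counts of Timp1 was not tested.

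**Figure D1:**
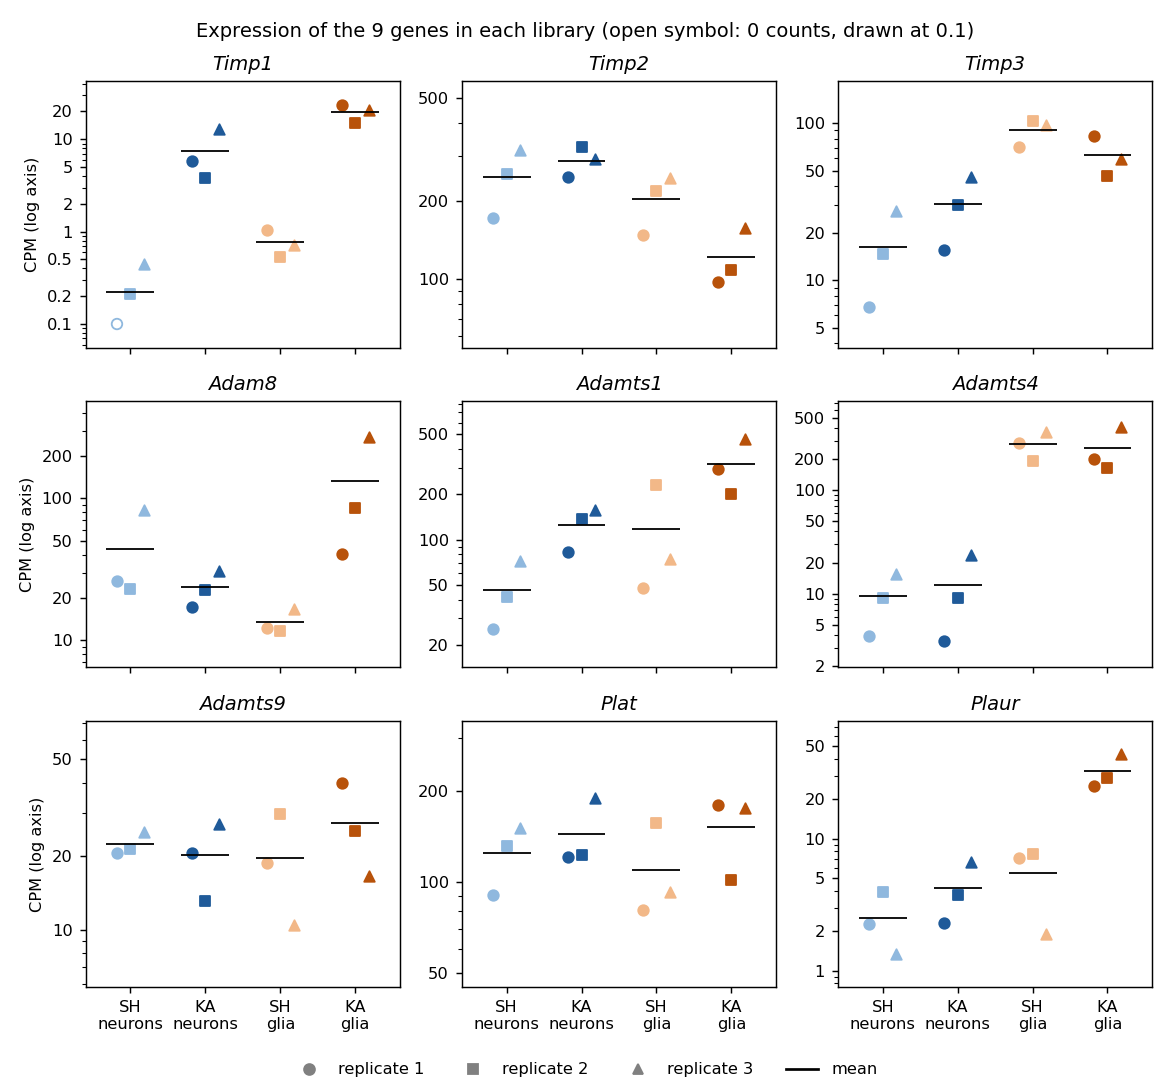
CPM of the 9 genes (log axis) in each of the 12 libraries, by treatment and fraction; symbols give the replicate number and bars the mean of 3 libraries. Timp1 rises from at most 1.05 CPM in SH libraries to at least 3.82 CPM in KA libraries, and Adam8 and Plaur separate KA from SH in glia but overlap in neurons.

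Among the 9 genes, 1 was past the FDR threshold of 0.25 for KA against SH in neurons and 3 in glia, all 4 calls being upregulation. Over all tested genes 0.34% were past it in neurons (0.279% upregulated) and 0.747% in glia (0.442% upregulated). The median logFC of the 9 genes was 0.36 in neurons and 0.48 in glia, against 0.00048 and 0.14 over all tested genes. The 9 genes, like the lists used below, were chosen with earlier results of these data known, so these comparisons do not test them. In neurons the 8 genes other than Timp1 had logFC between -0.90 and 1.43, each with an edgeR FDR of 1.

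Adam8, a metalloprotease-disintegrin known from leukocytes and activated microglia, rose in glia. Its levels in SH glia were 12.2, 11.6 and 16.6 CPM, and in KA glia 40.7, 85.4 and 270 CPM. The KA libraries lay above all SH libraries but were widely spread, with replicate 3 the highest. The logFC was 3.29 ± 0.63 (SE, n = 3 pools per group) with an edgeR FDR of 0.0490. Without KA glia replicate 3 it was 2.22 (FDR 0.184), and without the 2 low-input libraries 3.40 (FDR 0.438, no longer past the threshold). Without the replicate 3 libraries it was 2.40 (FDR 0.270).

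In neurons Adam8 stood at 26.3, 23.0 and 83.1 CPM in SH and at 17.3, 22.7 and 30.9 CPM in KA, so that the groups overlapped and replicate 3 of SH was apart from the others. The logFC was -0.90 ± 0.58 (SE, n = 3 pools per group, edgeR FDR 1), and -0.06 without SH neurons replicate 3. Thus the KA-to-SH difference had a positive sign in each of the 3 replicate numbers in glia (1.73, 2.87 and 4.01 on the log2 scale) and a negative one in neurons (-0.61, -0.02 and -1.43). The test of this difference in response, neurons minus glia, gave -4.19 ± 0.85 (SE) with an edgeR FDR of 0.537. In that comparison 0% of the 37598 genes and 0 of the 9 passed the threshold, 502 genes (1.34%) had an unadjusted p under 0.05, and DESeq2 called 34 genes (0.0904%), Adam8 (FDR 0.00381) among them. With pools of the same number taken as blocks within each fraction, the difference for Adam8 was -3.59 ± 0.50 (edgeR FDR 0.00427), and 0.402% of all genes were past the threshold.

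Plaur, the receptor that gathers urokinase at the cell surface, rose in glia as well. SH glia held 7.07, 7.59 and 1.88 CPM and KA glia 25.2, 28.7 and 43.6 CPM, without overlap. The lowest SH and the highest KA value both came from replicate 3. The logFC was 2.57 ± 0.56 (SE, n = 3 pools per group), with an edgeR FDR of 0.101. The call was lost without SH glia replicate 3 (logFC 2.14, FDR 0.378), without KA glia replicate 3 (2.29, FDR 0.288) and without the 2 low-input libraries (2.89, FDR 0.414), and the logFC was 1.87 (FDR 0.519) without the replicate 3 libraries.

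In neurons the level of Plaur was 2.24, 3.92 and 1.35 CPM in SH and 2.31, 3.71 and 6.64 CPM in KA. Only replicate 3 of KA stood above the SH range, and the logFC was 0.76 ± 0.55 (SE, edgeR FDR 1). The response in neurons minus that in glia was -1.80 ± 0.77 on the log2 scale (edgeR FDR 1), and -1.98 ± 0.44 (FDR 0.150) with the pool as a block joining its neurons and glia, a fit that called 0.471% of all genes.

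**Figure D2:**
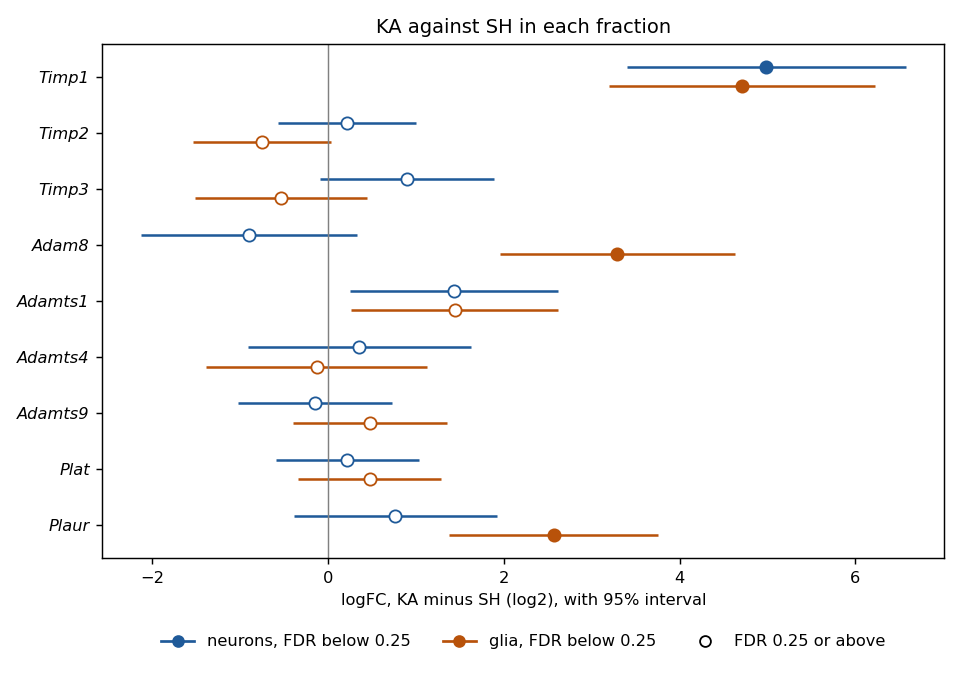
logFC of KA minus SH for the 9 genes in neurons and glia, with the 95% interval of the edgeR fit; filled points have an FDR below 0.25. Timp1 is filled in both fractions at 4.99 and 4.71, Adam8 at 3.29 and Plaur at 2.57 in glia, and the interval of Adamts1 lies above 0 in both fractions although its points are open.

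Of the secreted ADAMTS proteases, Adamts1, which cleaves aggrecan and versican and is known as inducible in injured tissue, came nearest to a call. In neurons its level was 25.5, 41.6 and 72.7 CPM in SH and 82.4, 137 and 157 CPM in KA. Every KA library was above every SH library. The logFC was 1.43 ± 0.56 (SE, n = 3 pools per group), with an unadjusted p of 0.0204 and an edgeR FDR of 1. In glia SH libraries held 47.8, 231 and 74.2 CPM and KA libraries 294, 200 and 464 CPM. Here the groups overlapped through replicate 2, the highest SH and the lowest KA library, and the logFC was 1.44 ± 0.56 (SE, edgeR FDR 0.762). Without SH glia replicate 2 it was 2.38 (FDR 0.118).

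With the replicate number as a block, Adamts1 was past the threshold in both fractions, at 1.51 ± 0.38 in neurons (edgeR FDR 0.0618) and 1.75 ± 0.42 in glia (FDR 0.0283). The block raised the calls to 3 of the 9 genes in neurons, all upregulated, where 3.05% of all genes were called (1.94% upregulated). In glia it raised them to 5, of which 4 were upregulated and 1 downregulated, where 7.64% of all genes were called (3.47% up and 4.17% down). The gene added in neurons besides Adamts1 was Timp3 (logFC 0.98, FDR 0.105), and in glia Timp2 (logFC -0.75, FDR 0.103). The calls of Timp1, Adam8 and Plaur were kept.

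**Figure D3:**
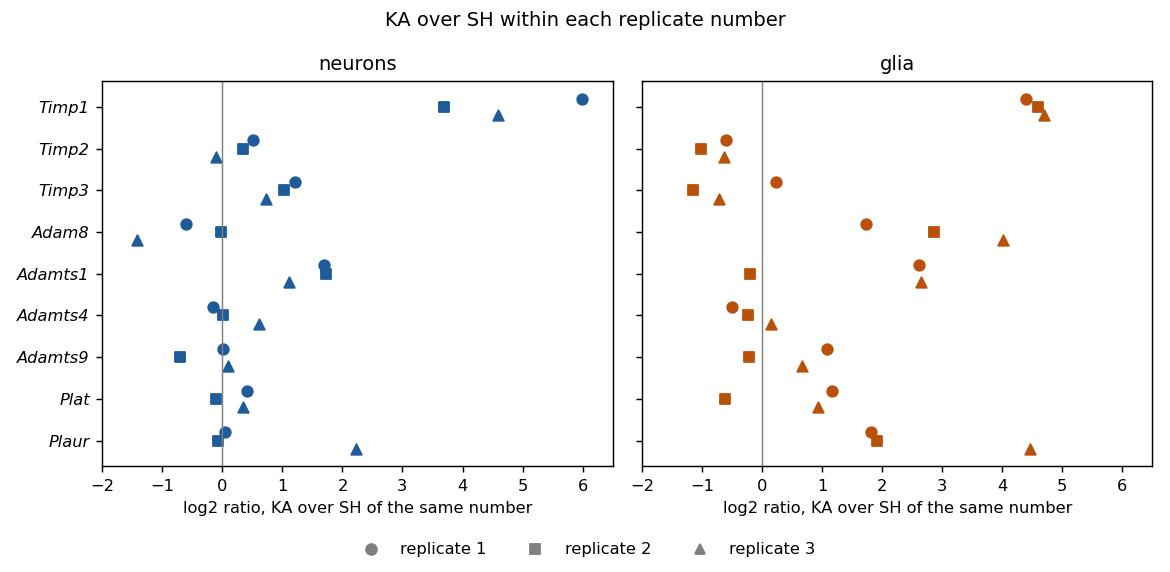
log2 ratio of KA over SH between libraries of the same replicate number, in neurons (left) and glia (right), for the 9 genes. Timp1 is above 3.6 in all 6 pairs, Adam8 is above 0 in glia and below 0 in neurons, and Adamts1 is above 1 in all pairs except replicate 2 of glia (-0.21). The Timp1 value of replicate 1 in neurons rests on 0 SH counts and a prior count of 2.

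Adamts4, another aggrecan- and brevican-cleaving protease, was a glial transcript in both treatments. SH glia held 286, 192 and 367 CPM and KA glia 200, 164 and 406 CPM, whereas SH neurons held 3.93, 9.15 and 15.6 CPM and KA neurons 3.50, 9.20 and 23.8 CPM. KA and SH overlapped in both fractions, with logFC of -0.13 ± 0.59 in glia and 0.36 ± 0.60 in neurons (SE, edgeR FDR 0.9999 and 1). The 95% interval of the change in glia ran from -1.39 to 1.12.

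Adamts9, a versican- and aggrecan-cleaving protease, stood at 20.6, 21.5 and 25.2 CPM in SH neurons and 20.7, 13.1 and 27.0 CPM in KA neurons. In glia its level was 18.7, 29.7 and 10.5 CPM in SH and 39.9, 25.4 and 16.6 CPM in KA. The groups overlapped in both fractions and the logFC was -0.15 ± 0.41 in neurons and 0.48 ± 0.41 in glia (SE, edgeR FDR 1 and 0.9999).

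Plat, the plasminogen activator that neurons and glia release, ranged from 90.6 to 151 CPM in SH neurons and from 121 to 191 CPM in KA neurons. Its range was 80.6 to 157 CPM in SH glia and 102 to 180 CPM in KA glia. These groups overlapped, with logFC of 0.22 (95% interval -0.59 to 1.03) in neurons and 0.47 (-0.34 to 1.28) in glia, both short of the threshold (edgeR FDR 1 and 0.9999).

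Timp2, the constitutive inhibitor that also takes part in activating MMP2, was the most abundant of the 3 inhibitors. Its level was 173, 254 and 314 CPM in SH neurons and 247, 324 and 290 CPM in KA neurons. In glia it was 148, 219 and 246 CPM in SH and 97.4, 109 and 158 CPM in KA, lower in KA in each of the 3 replicate numbers although the ranges overlapped. The logFC was 0.22 ± 0.37 in neurons and -0.75 ± 0.37 in glia (SE, edgeR FDR 1 and 0.9999).

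Timp3, the inhibitor that binds to the matrix and also blocks ADAM and ADAMTS proteases, was at 6.72, 14.8 and 27.6 CPM in SH neurons and 15.7, 30.1 and 45.7 CPM in KA neurons. In glia the levels were 70.4, 103 and 98.0 CPM in SH and 82.7, 46.1 and 59.1 CPM in KA. KA exceeded SH in each replicate number in neurons and in 1 of 3 in glia. The logFC was 0.90 ± 0.47 in neurons and -0.53 ± 0.46 in glia (SE, edgeR FDR 1 and 0.9999), and the difference between these responses was 1.43 ± 0.66 (FDR 1), or 1.54 ± 0.39 with the block within fractions (FDR 0.220). Timp3 lies within Syn3 on the opposite strand and shares 21.3% of its exon bases with exons of Syn3. Reads in shared exons were not counted for either gene under the default setting. Syn3 had a logFC of 0.15 in neurons and -0.11 in glia (edgeR FDR 1 and 0.9999). The effect of this overlap on Timp3 was not tested.

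Neurons were then compared with glia within each treatment. In SH, 5 of the 9 genes were past the threshold, where 19.9% of all tested genes were. Adam8 was higher in neurons (logFC 1.71 ± 0.60, SE, edgeR FDR 0.0847), which 12.3% of all genes were, and Timp1, Timp3, Adamts1 and Adamts4 were lower, which 7.57% were. Adamts4 had the largest difference, at -4.88 ± 0.70 (FDR 0.000329), followed by Timp3 at -2.47 ± 0.49 (FDR 0.00318), and these calls held in all fits without 1 library. Those of Timp1 (-1.67, FDR 0.197) and Adamts1 (-1.34, FDR 0.170) held in 3 of 6 such fits each. Timp1 lost its call without replicate 1 or 2 of SH neurons or replicate 1 of SH glia, and Adamts1 without replicate 1 or 2 of SH neurons or replicate 2 of SH glia. With the pool as a block, which called 33.7% of all genes, 6 of the 9 passed, with Plaur added (logFC -1.03, edgeR FDR 0.0274, against -1.13 and 0.273 without the block). Plaur also passed with RLE factors (-1.25, edgeR FDR 0.196) and by DESeq2 (-1.25, FDR 0.104). The higher level of Adam8 in SH neurons was 0.87 (FDR 0.613) without SH neurons replicate 3 and 1.31 (FDR 0.387) without SH glia replicate 1.

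In KA, 7 of the 9 genes were past the threshold for neurons against glia, where 17.8% of all genes were. Timp2 was higher in neurons (logFC 1.24 ± 0.38, SE, edgeR FDR 0.0453), as 11.2% of all genes were, and 6 genes were lower, as 6.62% were. Adamts4 differed by -4.39 ± 0.68 (FDR 0.000861), Plaur by -2.93 ± 0.57 (FDR 0.00305) and Adam8 by -2.48 ± 0.61 (FDR 0.0133), and these calls held without any 1 library. Timp1 (-1.39, FDR 0.220), Adamts1 (-1.35, FDR 0.179) and Timp3 (-1.04, FDR 0.237) were nearer to the threshold. Leaving out single libraries ended the Timp1 call in 4 of 6 fits (replicates 1 and 2 of KA neurons, 1 and 3 of KA glia), that of Adamts1 in 4 (all 3 of KA neurons and replicate 3 of KA glia), that of Timp3 in 3 (replicates 1 and 2 of KA neurons, 1 of KA glia) and that of Timp2 in 2 (replicates 1 and 2 of KA glia). Plat and Adamts9 were past the threshold in neither treatment, with differences between -0.43 and 0.19. With the pool as a block the same 7 genes passed in KA, where 7701 of 37598 genes were called higher and 4087 lower.

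**Figure D4:**
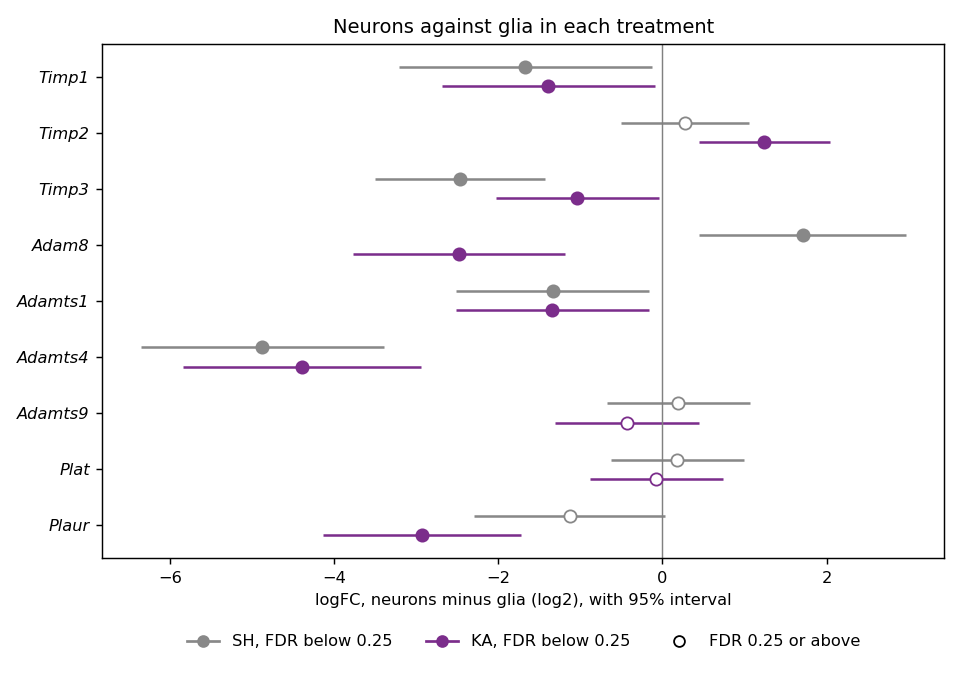
logFC of neurons minus glia for the 9 genes in SH and in KA, with the 95% interval of the edgeR fit; filled points have an FDR below 0.25. Adam8 is at 1.71 in SH and -2.48 in KA, and Adamts4 is below -4 in both.

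The level of Timp1 in KA neurons was 24.5%, 25.3% and 62.8% of that in KA glia of the same pool in replicates 1, 2 and 3. Summed markers of glia, measured in the same way, reached 10.1%, 28.0% and 41.8% for astrocytes, 5.97%, 8.04% and 6.94% for microglia and 0.859%, 4.69% and 4.37% for oligodendrocytes. The summed endothelial markers reached 44.9%, 48.2% and 89.2% and the pericyte markers 28.2%, 53.5% and 71.4%. Adamts4 stood at 1.75%, 5.60% and 5.86%. How far RNA of glia or vascular cells in the neuronal fraction contributes to Timp1 there was not tested.

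Compared per length of the merged exons, as CPM per kilobase of exon (RPKM, mean of 3 libraries ± SD), Timp2 led the 9 genes in SH neurons at 63.4 ± 18.2 and in KA neurons at 73.7 ± 9.94. Plat came next in SH neurons at 19.9 ± 4.92, ahead of Adam8 (9.52 ± 7.28) and Adamts1 (8.79 ± 4.52), which lay within their spread of each other, and Timp3, Adamts4, Adamts9 and Plaur were at 2.01 RPKM or less. Timp1 was the lowest there at 0.248 ± 0.253 and stood at 8.51 ± 5.47 in KA neurons, behind Timp2, Adamts1 and Plat. In SH glia Adamts4 (58.5 ± 18.2) and Timp2 (52.4 ± 13.0) led, within their spread of each other. In KA glia Adamts1 (60.3 ± 25.3) and Adamts4 (53.4 ± 27.2) likewise did not differ beyond their spread, and Timp1 moved from the lowest place (0.863 ± 0.291) to 22.4 ± 4.93, close to Plat at 24.4 ± 7.07. These orders are descriptions of mean levels and rest on the division by exon length. By CPM alone Timp1 ranked 8 of 9 in KA neurons and 9 of 9 in KA glia, against 4 and 6 by RPKM.

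Other genes of the system were read from lists of 67 genes, of which 66 were tested. In neurons 2 were past the threshold, both upregulated (all genes, 0.34%, and 0.279% upregulated), and in glia 2 were upregulated and 2 downregulated (all genes, 0.442% and 0.306%). Their median logFC was 0.06 in neurons and 0.19 in glia, against 0.00048 and 0.14 over all tested genes. Anxa2, a surface receptor for Plat and plasminogen, changed by 2.32 ± 0.51 in neurons (edgeR FDR 0.145) and 2.17 ± 0.49 in glia (FDR 0.124), with all KA libraries above all SH libraries in both. Without the replicate 3 libraries, these were 1.27 (FDR 0.9997) and 1.73 (FDR 0.522). The call in neurons also ended without any 1 of the 3 SH neurons libraries or KA neurons replicate 3 (1.45, FDR 1), and that in glia without SH glia replicate 3 (1.97, FDR 0.552), without KA glia replicate 3 (1.92, FDR 0.293) or without the low-input libraries (2.54, FDR 0.396). Plau, which encodes urokinase, the ligand of Plaur, was at mean levels of 1.03 to 3.09 CPM in the 4 groups, with logFC of -0.23 ± 0.83 in neurons and 0.67 ± 0.82 in glia (edgeR FDR 1 and 0.9999). Serpine2, the inhibitor nexin that glia release, had a logFC of -0.21 in neurons and -0.76 in glia (edgeR FDR 1 and 0.9999).

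Among the 4 lecticans, the substrates of the ADAMTS proteases, aggrecan (Acan) rose in neurons and brevican (Bcan) fell in glia. Acan was at 2.78, 7.71 and 6.45 CPM in SH neurons and at 68.1, 89.6 and 65.5 CPM in KA neurons, the smallest p of all genes tested there (logFC 3.71 ± 0.44, SE, n = 3 pools per group, edgeR FDR 0.00477). In glia its logFC was 0.60 ± 0.40 (FDR 0.9999). Bcan had a logFC of -2.02 ± 0.51 in glia (edgeR FDR 0.193), from a mean of 1280 CPM in SH to 316 CPM in KA. In neurons its logFC was -1.32 ± 0.50 (FDR 1), with 176 to 418 CPM in SH and 64.4 to 132 CPM in KA. Every KA library of Bcan lay below every SH library in both fractions, as for 3% of all tested genes in glia and 4.45% in neurons. The Bcan call in glia ended without SH glia replicate 1 or 3 or any 1 of the KA glia libraries (logFC -1.79 to -2.46, FDR 0.295 to 1), without the replicate 3 libraries (-1.77, FDR 0.654), without the low-input libraries (-1.96, FDR 1), without a filter (-2.19, FDR 0.342) and with separate fits (-1.86, FDR 0.589). The Acan call in neurons held in all alternatives run.

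Of the 22 matrix metalloproteinases tested, Mmp2 alone was past the threshold. This gelatinase fell in glia from 19.3 to 31.8 CPM in SH to 5.82 to 7.25 CPM in KA, by a logFC of -1.90 ± 0.48 (SE, edgeR FDR 0.189). The call ended without SH glia replicate 1 or 3 or any 1 of the KA glia libraries (logFC -1.64 to -2.02, FDR 0.293 to 0.905), without the replicate 3 libraries (-1.75, FDR 0.729) and without the low-input libraries (-2.16, FDR 0.906). Mmp9, the gelatinase known from activity-dependent plasticity, had mean levels of 2.15 to 4.12 CPM and logFC of -0.36 ± 0.99 in neurons and 0.27 ± 1.00 in glia (edgeR FDR 1 and 0.9999). None of the 11 other ADAM and 16 other ADAMTS genes was past the threshold in either fraction by edgeR. At an unadjusted p under 0.05 were 1 ADAM and 2 ADAMTS genes in neurons and 2 of each in glia, against 3.2% and 4.79% of all tested genes. The sheddases Adam10 (-0.29 in neurons, -0.25 in glia) and Adam17 (-0.02 and 0.17) had logFC with standard errors of 0.36 to 0.37. Of the remaining inhibitors, Timp4 had a logFC of -0.24 ± 0.41 in neurons and -0.93 ± 0.42 in glia, and the membrane-anchored Reck of -0.51 ± 0.33 and -0.52 ± 0.33 (edgeR FDR of at least 0.99).

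**Figure D5:**
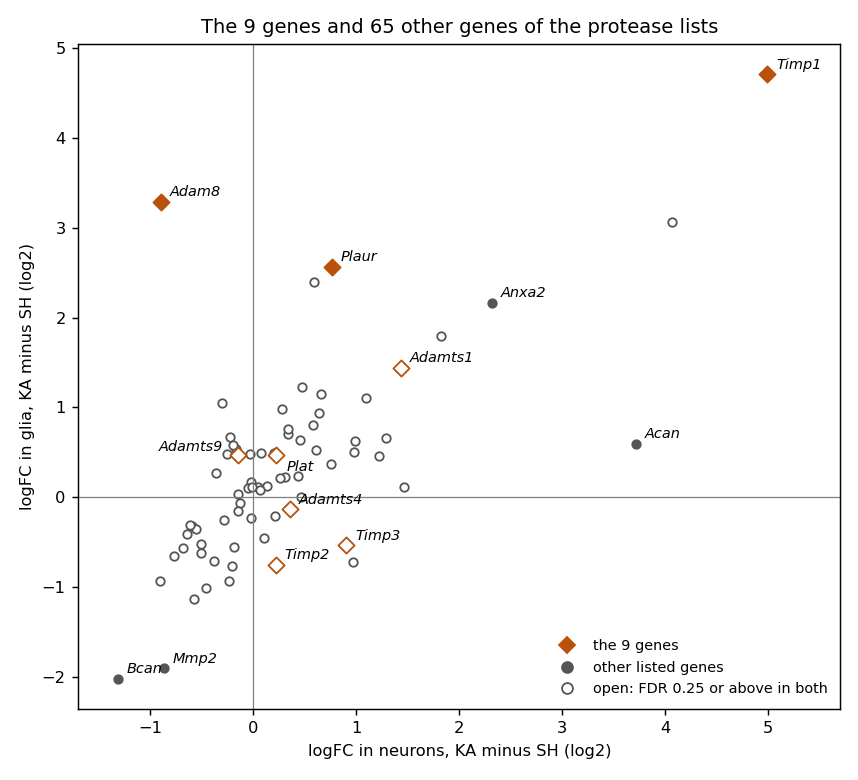
logFC of KA minus SH in neurons (horizontal) and glia (vertical) for the 9 genes (diamonds) and 65 other listed genes (circles); filled symbols have an FDR below 0.25 in at least 1 fraction. Timp1 lies far from 0 on both axes, Anxa2 is at 2.32 in neurons and 2.17 in glia, and Acan at 3.71 and 0.60.

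For the 3 genes that rose, the protein-coding genes with the most similar pattern over the 12 libraries were ranked by Pearson's r of log2 CPM among 20345 genes, as a description over libraries that share pools, treatment and fraction. Timp1 was nearest to Fgl2 (r = 0.954), Sec16b (0.951) and Btc (0.934). Fgl2 and Btc had logFC of 3.12 and 3.43 in glia (edgeR FDR 0.0284 and 0.0604), and Fgl2 of 2.75 in neurons (FDR 0.0675). Short of the threshold were Sec16b (1.33 in neurons, edgeR FDR 0.738, and 0.85 in glia, FDR 0.9999) and Btc in neurons (2.09, FDR 0.637). Adam8 was nearest to Stat2 (0.914), Akip1 (0.899) and Dhdh (0.895), of which none was past the threshold in either fraction. Plaur was nearest to Akap12 (0.980), Ifit3 (0.976) and Bcl3 (0.972), and Ifit3 and Bcl3 had logFC of 2.95 and 3.95 in glia (edgeR FDR 0.0257 and 0.0295). Akap12 was short of the threshold in glia (1.33, edgeR FDR 0.362), and none of these 3 was past it in neurons. Since similar genes were picked by their pattern over the same libraries, their changes with KA are no separate evidence. Between the 9 genes themselves, r was highest for Timp3 with Adamts4 (0.896) and for Timp1 with Adamts1 (0.810), and lowest for Timp2 with Plaur (-0.740).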

How the data were processed

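The deposited table holds counts of the 12 mRNAseq libraries. The authors trimmed reads with Trim Galore 0.4.3, aligned them with Rsubread and counted them by gene with featureCounts at its default settings, which ignore the strand. They used GENCODE M16, while symbols and positions were taken here from GENCODE M21 (GRCm38) by Ensembl ID, and the 105 of 53379 genes without a symbol were left out. The RRBS samples were not analysed here.

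Genes passing filterByExpr (minimum count 10, minimum total 15, over 4 groups) were scaled by TMM and fitted with edgeR 4.0.16 (glmQLFit, legacy=TRUE; limma 3.58.1, R 4.3.3) with 1 mean per group over 12 libraries. The FDR is the Benjamini-Hochberg adjusted p over every gene tested, with a threshold of 0.25 as in the study. CPM use TMM-scaled totals, and RPKM divide by merged exon length. The p values rest on the spread between libraries within the 4 groups, taken over all 12 libraries and moderated across genes, not on 3 pools alone. The main fit treated the neurons and glia of a pool as independent. Numbers of replicates were taken as pairs because libraries of 1 number deviated together across genes, with correlations from 0.264 to 0.764 between KA and SH and from 0.293 to 0.649 between neurons and glia of a pool.

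The 9 genes and all lists were chosen with earlier results of these data known. Named besides the 9 were listed genes past the threshold, fixed genes of the system (Timp4, Reck, Mmp2, Mmp9, Adam10, Adam17, Plau, Serpine2) and the 3 most similar genes of each of the 9 that was called. Values of 1 listed gene are left out here. Overlapping and marker genes were named for position or after their values were seen. The fit was also run on simulated counts, drawn independently for each library with changes set in well-counted genes. These lacked the deviations shared by libraries of 1 number, so the run says nothing of their effect on the tests. Alternatives were RLE factors, other filters, all gene IDs, edgeR 4, DESeq2 1.42.0, an FDR of 0.05, separate fits, replicate blocks, leaving out the low-input libraries or each library and, added after the data were seen, leaving out the replicate 3 libraries. Figures used matplotlib 3.10.9.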

Additional observations from a re-analysis of the deposited data

Results flagged for a closer look

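The response of 3 genes differed between neurons and glia in a fit with a block, though not in the edgeR fit without one. Without a block, Adam8 was also past the threshold by DESeq2 (FDR 0.00381) and without a filter (edgeR FDR 0.224). The same held with 10 counts in every library (FDR 0.144) and without KA glia replicate 1 (FDR 0.223). Adam8 was short of the threshold with RLE factors, with all gene IDs, with edgeR 4 and at an FDR of 0.05. It was also short of it without the low-input libraries and without the replicate 3 libraries. Adam8 differed by -3.59 (neurons minus glia, edgeR FDR 0.00427) with a block within each fraction and by -3.58 (FDR 0.00920) with a block by pool, Plaur by -1.98 (FDR 0.150) with the block by pool, and Timp3 by 1.54 (FDR 0.220) with the block within fractions. In the other of these fits Plaur differed by -1.96 (FDR 0.770) and Timp3 by 1.56 (FDR 0.538). Without the block, 0 of 37598 genes passed by edgeR. Groups of 3 libraries were too small for a search for outlying values.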

How the results depend on the processing

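In neurons, 0 of the 9 genes were called with at least 10 counts in every library, where Timp1 was not tested, 2 with separate fits and 3 with the replicate block. Over all genes these settings called 329 higher and 136 lower of 18632, 409 and 247 of 32012, and 730 and 417 of 37598. The main fit called 105 higher and 23 lower. In glia 5 were called with the block, 1 without the low-input libraries and 0 without the replicate 3 libraries. Over all genes in glia the block called 1305 higher and 1566 lower of 37598, against 166 and 115 in the main fit. The fit without the low-input libraries called 40 and 1 of 39577. For the difference in response, 1 was called without a filter, with 10 counts in every library and with DESeq2, and 2 with either replicate block. The fit without a filter called 4 genes higher and 5 lower of 51434, and that with 10 counts 8 and 7 of 18632. DESeq2 called 0.0904%, the block within fractions 0.402% and the block by pool 0.471% of all genes. At an FDR of 0.05, 2 were called for neurons against glia in SH and 4 in KA, and 3 in SH without the low-input libraries. Over all genes an FDR of 0.05 called 2276 higher and 1757 lower in SH and 2211 and 1497 in KA. Without the low-input libraries 1762 of 39577 genes were called higher and 2646 lower in SH. Of the other listed genes in neurons (2 called), 4 were called with 10 counts in every library and with edgeR 4, 6 with DESeq2, 7 with separate fits, 9 with the block, and 1 at an FDR of 0.05 or without the replicate 3 libraries. In glia (4 called) these were 7 with 10 counts in every library, edgeR 4 or DESeq2, 15 with the block, and 0 at an FDR of 0.05, without the low-input or without the replicate 3 libraries. Over all 37598 genes edgeR 4 called 194 higher and 59 lower in neurons and 287 and 228 in glia. DESeq2 called 292 and 140 in neurons and 364 and 602 in glia. An FDR of 0.05 called 17 and 1 in neurons and 51 and 11 in glia. With 10 counts in every library, 443 and 760 of 18632 genes were called in glia. Leaving out 1 library gave 1 to 1 of the 9 genes in neurons, 2 to 4 in glia, 0 to 1 for the difference, and 3 to 6 (SH) and 4 to 6 (KA) for neurons against glia, with 1 to 2 and 0 to 4 other genes in neurons and glia. The lowest count of other genes in glia, 0, arose without SH glia replicate 3. The cause was not tested.

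Timp1 in neurons kept its call in 16 of 16 alternatives that tested it and in glia in 15 of 16, Adam8 in glia in 15 of 17 and Plaur in glia in 12 of 17. Of all 763 alternative values of logFC, 33 changed sign, each of a gene not called. Neurons against glia in SH turned for Timp2 to -0.051 with 10 counts in every library and -0.18 without the low-input libraries, for Plat to -0.17 and -0.20 under the same settings, and for Adamts9 to -0.15 with 10 counts in every library. The difference in response of Adamts1 turned to 0.0099 without a filter, 0.12 with 10 counts in every library or without the low-input libraries, and 0.89 without the replicate 3 libraries, which also took Plaur in neurons to -0.023. Without 1 library, the difference in response ran from -0.37 to 1.24 for Timp1, -0.95 to 0.47 for Adamts1 and -0.44 to 1.03 for Adamts4. KA against SH ran from -0.57 to 0.90 for Adamts4, -0.41 to 0.090 for Adamts9 and -0.031 to 0.38 for Plat in neurons, and from -0.64 to 0.10 for Adamts4 in glia. Neurons against glia ran from -0.25 to 0.49 for Timp2, -0.15 to 0.63 for Adamts9 and -0.32 to 0.53 for Plat in SH, and from -0.42 to 0.059 for Plat in KA. RLE factors moved the median logFC of all genes for neurons against glia from 0.01 to -0.14 in SH and from -0.24 to -0.39 in KA, and the calls from 4628 higher and 2846 lower to 3379 and 3214 in SH and from 4200 and 2490 to 3162 and 2818 in KA. Platforms could not be told apart, since libraries were not assigned to them in the sources used here.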
